A study of Mus musculus with 16 samples.

Results

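The 10 genes described here encode integrin subunits made by muscle fibres and by the connective tissue, vessels and other cells around them: Itga1, Itga3, Itga5, Itga6, Itga7, Itga8, Itga9, Itgav, Itgb1 and Itgb5. They were taken by name, through the Ensembl identifiers of the count table, out of 29730 genes. The rule names genes and sets no threshold on a value, but the names were chosen with earlier results of these data known, so that their counts are not independent evidence. All 10 were found, and all 10 were among the 14960 genes that passed the filter on low counts. RNA sequencing was performed on the tibialis anterior, a fast muscle at the front of the lower leg, from male C57BL/6N mice aged 7 weeks. There were 16 samples in 4 groups of 4: wild type given phosphate-buffered saline (WT_PBS), wild type given an antisense oligonucleotide (WT_ASO), Bin1mck-/- knockout given saline (KO_PBS) and Bin1mck-/- knockout given the oligonucleotide (KO_ASO). The oligonucleotide is called ASO1, and the series title names Dnm2, which encodes the membrane-cutting GTPase dynamin 2, as its target; Bin1 encodes the membrane-curving protein amphiphysin 2. The label mck is the usual abbreviation of muscle creatine kinase, whose promoter is active in muscle fibres, but the labels do not spell it out, and cells other than fibres may keep Bin1. How much oligonucleotide was given and how often, and which part of Bin1 was deleted, is not given in the sources used here. Each sample was taken as a separate mouse, which the labels do not state, so that p-values measure the spread between these samples.

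Integrins are receptors made of an alpha and a beta chain that span the cell membrane and tie the cytoskeleton to the extracellular matrix. The alpha chain largely sets the ligand: Itga7 encodes the main laminin-binding alpha chain of muscle fibres, Itga3 and Itga6 also bind laminins, Itga1 binds collagens, Itga5 binds fibronectin, and Itga8, Itga9 and Itgav bind matrix proteins such as nephronectin, tenascin C and vitronectin. The beta 1 chain of Itgb1 pairs with all the alpha chains of this group, whereas the beta 5 chain of Itgb5 pairs with the alpha v chain of Itgav. In muscle, integrins hold the fibre to its basal lamina alongside the dystrophin complex and gather at the tendon end of the fibre, while the stroma uses others to hold and assemble collagen and fibronectin. In whole muscle, fewer cells of a type and less RNA per cell cannot be told apart.

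Total counts ran from 27591900 to 40862854 per sample. Levels are given as CPM, the count of a gene relative to the scaled total count of its sample. Bin1 was at 463 to 554 CPM in WT_PBS and 479 to 620 in WT_ASO, against 40.8 to 47.7 in KO_PBS and 31.7 to 42.9 in KO_ASO, and the 2 genotypes did not overlap. Dnm2 was at 50.2 to 62.8 CPM in WT_PBS and 59.1 to 67.7 in KO_PBS, against 23.1 to 29.4 in WT_ASO and 20.7 to 31.1 in KO_ASO. Both genes therefore separated the samples as the labels do. The label of the tissue was checked with 8 muscle fibre genes (Acta1, Ckm, Mb, Myh4, Tnnt3, Tnnc2, Pvalb and Actn3), none of which was at 0 in any group.

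The 10 genes lie on several chromosomes of the mouse build GRCm38 and are all annotated as protein coding. The 5 that were higher in KO_PBS than in WT_PBS (below) are Itga5 (ENSMUSG00000000555, chr15:103344286-103366763, minus strand), Itga7 (ENSMUSG00000025348, chr10:128933818-128958282, plus strand), Itga9 (ENSMUSG00000039115, chr9:118606690-118901003, plus strand), Itgav (ENSMUSG00000027087, chr2:83724397-83806916, plus strand) and Itgb1 (ENSMUSG00000025809, chr8:128685654-128733200, plus strand). The others are Itga1 (ENSMUSG00000042284, chr13:114953096-115101964), Itga3 (ENSMUSG00000001507, chr11:95044474-95076801), Itga6 (ENSMUSG00000027111, chr2:71745616-71858416), Itga8 (ENSMUSG00000026768, chr2:12106632-12301922) and Itgb5 (ENSMUSG00000022817, chr16:33829665-33949338). By start and end, Itga9 overlaps an antisense gene, Gm2415, which averaged 35.1 counts per sample. In the same way Itga1 overlaps Pelo on the same strand, which averaged 111 counts. Whether their exons overlap was not examined, so shared reads are not shown. The library kit kept the strand, but the strand setting of the counting is not given in the sources used here. Counts per gene do not separate splice forms, such as the alternative laminin-binding and cytoplasmic forms of Itga7.

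Promoter sequences are shown for the genes that were higher together in KO_PBS, so that the stretch before each start can be read beside its values. RefSeq promoters (GRCm38.p6, 250 bases before the RefSeq start) matched 8 of the 10 genes, in 9 records, and Itga6 and Itga7 had no entry. The 4 shown are Itga5 (chr15:103366792-103367041, minus strand), Itga9 (chr9:118711442-118711691, plus strand, a start that lies inside the GENCODE gene), Itgav (chr2:83724147-83724396, plus strand) and Itgb1 (chr8:128685404-128685653, plus strand). Each is written 5′ to 3′ on the strand of the gene, and capitals mark a GC box, GGGCGG or its reverse complement CCGCCC.
Itga5: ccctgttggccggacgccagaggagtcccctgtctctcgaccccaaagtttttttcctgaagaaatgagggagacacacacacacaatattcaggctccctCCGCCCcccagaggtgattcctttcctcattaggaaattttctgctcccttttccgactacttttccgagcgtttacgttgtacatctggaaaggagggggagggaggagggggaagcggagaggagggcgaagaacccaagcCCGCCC
Itga9: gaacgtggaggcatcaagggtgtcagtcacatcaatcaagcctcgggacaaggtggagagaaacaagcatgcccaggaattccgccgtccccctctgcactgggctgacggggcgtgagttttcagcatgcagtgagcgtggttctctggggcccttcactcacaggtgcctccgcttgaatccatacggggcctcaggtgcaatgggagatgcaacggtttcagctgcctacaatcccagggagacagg
Itgav: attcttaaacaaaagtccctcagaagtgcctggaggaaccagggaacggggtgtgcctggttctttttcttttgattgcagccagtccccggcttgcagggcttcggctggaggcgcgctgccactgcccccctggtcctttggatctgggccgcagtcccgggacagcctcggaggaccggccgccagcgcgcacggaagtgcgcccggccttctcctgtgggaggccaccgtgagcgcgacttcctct
Itgb1: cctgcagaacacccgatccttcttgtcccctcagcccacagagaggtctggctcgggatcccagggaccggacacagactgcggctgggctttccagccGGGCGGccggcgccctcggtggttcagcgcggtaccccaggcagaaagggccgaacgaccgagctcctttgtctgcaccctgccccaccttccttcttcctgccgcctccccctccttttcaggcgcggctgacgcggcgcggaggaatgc
The GC box was found 2 times before Itga5 and 1 time before Itgb1, and not before Itga9 or Itgav, whereas 32.7% of the 32851 RefSeq promoters of the same length hold it on either strand. The E-box CANNTG, which reads the same on both strands, was found 3 times before Itga9 and 1 time before Itga5, and 66.2% of all promoters hold it. Among all 9 records the GC box was in 5 and the E-box in 7, and among the 4 shown each was in 2. The M-CAT box CATTCC was found before Itgb1 alone among the 9 records (12.6% of all promoters). Neither TGANTCA, the AP-1 site (6.75% of all promoters), nor the CArG box (1.47%) was found in any of the 9 records. The GC content of the 4 stretches shown ran from 55.6% for Itga5 to 68.0% for Itgb1, against 53.2% over all promoters. In the records of the genes not called higher it ran from 50.8% to 67.6%, both before Itga3. A match of letters is a description and not a binding site, and no match was shared by all 4 promoters.

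Levels of different genes were compared per length, since long transcripts collect more reads, as CPM per kilobase of annotated exon and as CPM per kilobase of the longest coding sequence. Exon lengths include long untranslated parts in some of these genes, and which length the reads cover was not tested, so an order is stated as such only where it was the same on both scales. Per kb of exon, WT_PBS had Itgb1 at 55.6 ± 3.51 CPM per kb (SD, n = 4), Itgb5 at 21.8 ± 3.06, Itga7 at 14.9 ± 1.37, Itga6 at 4.68 ± 0.852, Itga5 at 3.27 ± 0.444, Itgav at 2.40 ± 0.501, Itga1 at 1.75 ± 0.187, Itga3 at 1.72 ± 0.207, Itga9 at 0.783 ± 0.159 and Itga8 at 0.362 ± 0.0901. Per kb of coding sequence, the same group had Itgb1 at 94.7 ± 5.99 CPM per kb (SD, n = 4), Itga7 at 35.3 ± 3.24, Itgb5 at 31.6 ± 4.44, Itga6 at 12.9 ± 2.35, Itga1 at 9.21 ± 0.982, Itgav at 8.23 ± 1.72, Itga5 at 5.10 ± 0.693, Itga3 at 3.07 ± 0.368, Itga9 at 1.94 ± 0.394 and Itga8 at 0.838 ± 0.208. On both scales the common beta chain Itgb1 stood above every other subunit, Itga7 above every other alpha chain and Itga6 next among the alpha chains, without overlap of their samples, and Itga9 and Itga8 were the lowest. The order of Itga7 and Itgb5 and that of Itga5, Itgav and Itga1 depended on the length used. Per kb of exon the samples of Itga5 and Itgav, of Itgav and Itga1, and of Itga1 and Itga3 overlapped, and per kb of coding sequence those of Itga7 and Itgb5 and of Itga1 and Itgav did.

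In KO_PBS Itgb1 was again the highest, at 79.9 ± 10.03 CPM per kb of exon (SD, n = 4) and 136 ± 17.1 per kb of coding sequence. Itga7 had a higher mean than Itgb5 in KO_PBS on both scales. Per kb of exon Itga7 was at 27.3 ± 6.30 and Itgb5 at 20.9 ± 1.24 with overlapping samples, and per kb of coding sequence they were at 64.5 ± 14.9 and 30.4 ± 1.80 without overlap. The order of Itga5 and Itga6 in KO_PBS depended on the length. Per kb of exon Itga5, at 6.56 ± 1.21, was above Itga6, at 4.35 ± 0.899, without overlap, whereas per kb of coding sequence Itga5, at 8.38 to 12.2, overlapped Itga6, at 8.50 to 13.97, and had the lower mean. In KO_ASO Itgb5 and Itga7 were at 23.5 ± 5.43 and 18.1 ± 1.53 CPM per kb of exon and at 34.1 ± 7.88 and 42.7 ± 3.62 per kb of coding sequence, so that their order again depended on the length, and Itga6 had a higher mean than Itga5 on both. Itga8 was lowest in all 4 groups on both scales, with 29 to 146 counts per sample, which is the shallowest measurement among the 10 genes.

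**Figure D1:**
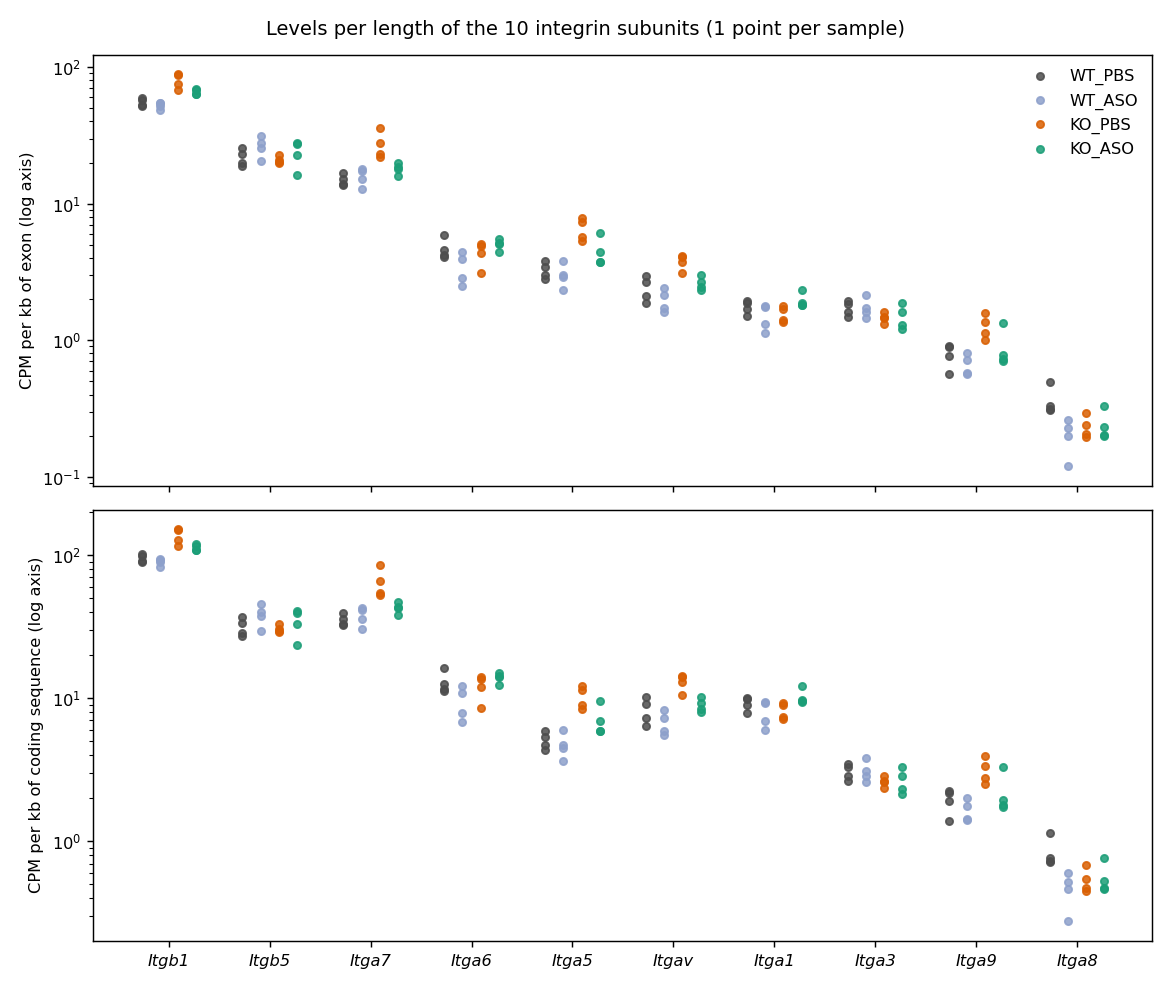
Levels per length of the 10 subunits in each of the 16 samples (1 point per sample, log axes), as CPM per kb of merged exon in the upper panel and CPM per kb of the longest coding sequence in the lower panel, with genes in the order of their WT_PBS mean per kb of exon. Itgb1 is highest and Itga8 lowest in every group in both panels, while the order of Itgb5 and Itga7 in WT_PBS and that of Itga5, Itgav and Itga1 differ between the panels.

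The effect of the Bin1 knockout was examined first, in the saline-treated mice. Of the 10 subunits, 5 were called higher in the knockout and 0 lower (edgeR quasi-likelihood test, Benjamini-Hochberg adjusted p under 0.05 over all 14960 genes). Among all genes tested, 12.6% passed this threshold, 7.43% as higher and 5.12% as lower. The fibronectin receptor chain Itga5 was 2.004-fold higher, the laminin receptor chain Itga7 1.83-fold, Itga9 1.62-fold, Itgav 1.57-fold and the shared beta chain Itgb1 1.44-fold. The collagen-binding Itga1, the laminin-binding Itga3 and Itga6, and Itgb5 did not pass, and neither did Itga8, the member with a lower value in every KO_PBS sample. Over the 10 genes the median log2 fold change was 0.23, beside -0.01 over all genes.

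Itga5, the alpha chain of the classical fibronectin receptor, was at 14.9, 13.8, 18.7 and 17.0 CPM in WT_PBS replicates 1 to 4 and at 38.6, 26.5, 28.1 and 36.2 CPM in KO_PBS. Every knockout sample was above every wild-type sample. Its log2 fold change was 1.003 (SE 0.18), with an adjusted p of 0.00181 by edgeR and an exact permutation p of 0.0286 (two-sided), which is the smallest that 4 samples against 4 allow.

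Itga7, the laminin-binding chain that is most typical of muscle fibres, was at 111, 136, 123 and 114 CPM in WT_PBS and at 290.2, 186, 179 and 227 CPM in KO_PBS. Its KO_PBS samples spread widely, replicate 1 being far above the others, but none reached down to the wild-type range. On the log2 scale the difference was 0.87 (SE 0.14, edgeR adjusted p = 0.000924; exact permutation p = 0.0286). Without KO_PBS replicate 1 it was 0.71, the lowest value in the fits that left out 1 sample each.

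Itgb1, which encodes the partner of these alpha chains, was at 216, 243, 213 and 235 CPM in WT_PBS and at 362, 306, 278 and 359 CPM in KO_PBS. The groups did not overlap, and the wild-type samples were close together. The log2 fold change of 0.52 was the smallest of the 5 called, but also the one with the smallest error (SE 0.089, edgeR adjusted p = 0.00127; exact permutation p = 0.0286).

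Itgav, the chain that binds vitronectin and other RGD-bearing proteins, was at 19.98, 28.6, 22.7 and 31.8 CPM in WT_PBS and at 44.4, 40.4, 33.2 and 43.8 CPM in KO_PBS. The gap between the groups was narrow, the lowest KO_PBS sample lying just above the highest WT_PBS sample. This gave a log2 fold change of 0.65 (SE 0.15, edgeR adjusted p = 0.0113; exact permutation p = 0.0286).

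Itga9, which binds tenascin C and VCAM1, was at 4.33, 6.82, 5.91 and 7.02 CPM in WT_PBS and at 12.2, 7.76, 8.63 and 10.5 CPM in KO_PBS. The groups did not overlap, although they were separated by less than the spread within either. The log2 fold change was 0.70 (SE 0.22, edgeR adjusted p = 0.0427; exact permutation p = 0.0286). This call was the least secure of the 5: it was lost without WT_PBS replicate 1 (adjusted p = 0.109), 2 (0.0626), 3 (0.0863) or 4 (0.0590), without KO_PBS replicate 1 (0.147), 3 (0.0506) or 4 (0.0841), and without WT_ASO replicate 3 (0.0506), and it was kept in 15 of 23 alternatives. The calls of Itga5, Itga7, Itgav and Itgb1 were kept in 23 of 23, with adjusted p-values of at most 0.00880, 0.00524, 0.0401 and 0.00795.

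Itga8, a chain for RGD-bearing ligands such as nephronectin, was at 2.31, 2.27, 2.44 and 3.66 CPM in WT_PBS and at 2.18, 1.44, 1.51 and 1.75 CPM in KO_PBS. All KO_PBS samples were below all WT_PBS samples, by a narrow margin. The log2 fold change was -0.64 (SE 0.24), and its edgeR adjusted p of 0.0977 missed the threshold, while the exact permutation p was 0.0286. Limma-voom called it lower (-0.75, adjusted p = 0.0186), as did edgeR with the replicate number as a block (-0.62, adjusted p = 0.0487), and these were the 2 of 23 alternatives in which it passed; without WT_PBS replicate 4 the value was -0.44 (adjusted p = 0.309). In all, 6 of the 10 genes had groups that did not overlap, 5 higher and 1 lower, beside 20.4% of all genes tested (10.5% higher and 9.85% lower).

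For the other 4 subunits the wild-type and knockout samples overlapped. Itga1 ranged from 28.1 to 35.8 CPM in WT_PBS and from 25.4 to 32.9 in KO_PBS, a log2 fold change of -0.17 (95% interval -0.47 to 0.13). Itga3 gave -0.23 (-0.54 to 0.08), Itga6 gave -0.11 (-0.49 to 0.28) and Itgb5 gave -0.06 (-0.39 to 0.27). The lowest adjusted p of these 4 genes was 0.330 (edgeR). The upper bounds of these intervals lay below the fold changes of Itga5, Itga7, Itga9, Itgav and Itgb1, but the difference between genes was not tested. The endothelial and epithelial laminin receptor chain Itga6 thus had wide limits, its WT_PBS samples running from 36.5 to 53.3 CPM and its KO_PBS samples from 27.8 to 45.7 CPM.

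**Figure D2:**
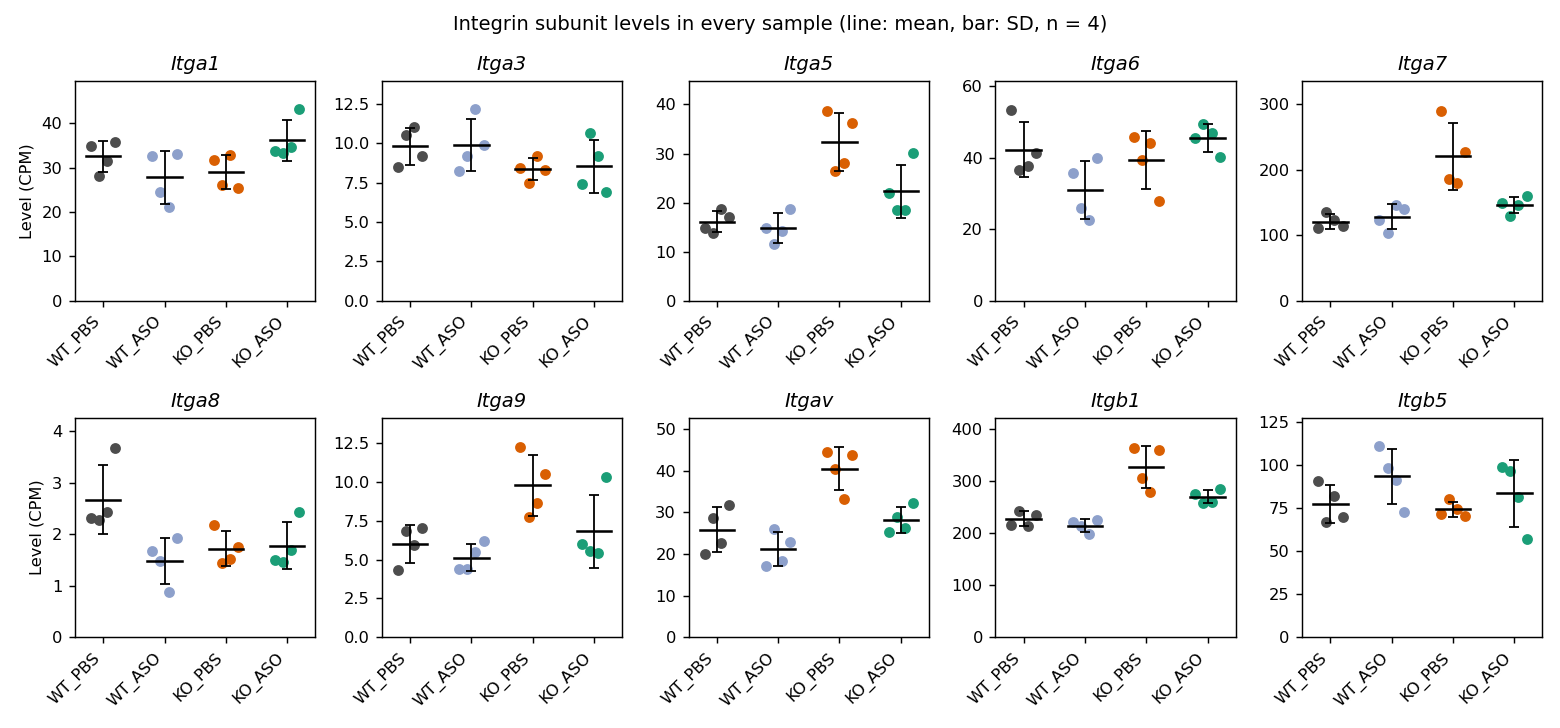
Level of each integrin subunit in CPM (vertical axes, each starting at 0) in the 4 groups (horizontal axes); points are samples, lines are group means and bars are SD (n = 4). Itga5, Itga7, Itga9, Itgav and Itgb1 are higher in every KO_PBS sample than in any WT_PBS sample; Itga1, Itga3, Itga6 and Itgb5 overlap between these groups.

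Markers of cell types that also carry these subunits moved with the groups. The summed level of 8 macrophage markers was 45.1 to 73.3 CPM in WT_PBS and 117 to 352 CPM in KO_PBS, with 8 of 8 genes called higher. That of 8 fibroblast markers was 1100.2 to 1431 CPM in WT_PBS and 1378 to 2406 CPM in KO_PBS, with 3 of 8 called higher and 0 lower. Satellite cell markers, of muscle stem cells, went from 47.4 to 54.8 CPM to 35.8 to 41.5 CPM, with 4 of 6 called lower. The sum of 8 muscle fibre markers was 145177 to 185081 CPM in WT_PBS and 104501 to 127572 CPM in KO_PBS, below every WT_PBS sample, with 3 of 8 genes called lower and 0 higher. Endothelial markers (0 of 8 called) and Schwann cell markers (0 of 6 called) overlapped. The sum of 8 mural cell markers, of the cells around vessels, was 954 to 1043 CPM in WT_PBS and 761 to 944 CPM in KO_PBS, below every WT_PBS sample, with 1 of 8 called higher and 2 lower, and 1 of 5 tendon markers was called higher. None of these markers was at 0 in any group. Within KO_PBS, replicates 1 and 4 had the 2 highest levels of each of Itga5, Itga7, Itga9, Itgav and Itgb1. They also had the 2 highest macrophage sums, 198 and 352 CPM beside 117 and 118 in replicates 2 and 3, the 2 highest fibroblast sums, 2289 and 2406 CPM beside 1378 and 2040, and the 2 highest tendon sums, 311 and 299 CPM beside 159 and 187. Their muscle fibre sums were the 2 lowest, 104501 and 121407 CPM beside 124378 and 127572. In the other lists replicates 1 and 4 had neither the 2 highest nor the 2 lowest sums. Endothelial sums were 447 and 372 CPM in replicates 1 and 4 beside 426 and 528 in replicates 2 and 3. In the same order, mural sums were 894 and 761 CPM beside 816 and 944. Satellite cell sums were 38.2 and 35.8 CPM beside 36.4 and 41.5, and Schwann cell sums 33.9 and 67.2 CPM beside 47.7 and 57.4. The part of these cell types in the levels of the integrin subunits was not tested.

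The effect of the oligonucleotide in the knockout was examined next. This comparison shares the KO_PBS samples with the one above, and the values are set side by side without a test of their likeness. Of the 10 subunits, 1 was lower in KO_ASO than in KO_PBS and 0 were higher (edgeR, adjusted p under 0.05), beside 3.64% of all genes, 2.83% lower and 0.802% higher. That gene was Itga7. Itga5, Itga9, Itgav and Itgb1 also had negative log2 fold changes, and none of these 4 passed in this fit. With the replicate number as a block, Itga5 and Itgav passed as well as Itga7. At an unadjusted p under 0.05 there were 6 of the 10 genes, beside 17.7% of all genes tested.

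Itga7 was at 149, 129.9, 146 and 159.8 CPM in KO_ASO replicates 1 to 4, all below the lowest KO_PBS sample at 179 CPM. The log2 fold change was -0.59 (SE 0.14, edgeR adjusted p = 0.0307; exact permutation p = 0.0286), which is 66.3% of the KO_PBS level. The call did not hold without KO_PBS replicate 1, where the log2 fold change was -0.44 (edgeR adjusted p = 0.0940), without KO_PBS replicate 4 (0.0574), or without KO_ASO replicate 1 (0.0784), 2 (0.0783) or 3 (0.0705). It was also lost when only the groups compared entered the fit (0.0735), and kept in 17 of 23 alternatives. Set against the saline wild type, KO_ASO gave a log2 fold change of 0.27 for Itga7 (95% interval -0.02 to 0.57, edgeR adjusted p = 0.635).

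Itgav was at 25.2, 28.8, 26.2 and 32.1 CPM in KO_ASO, again without overlap with the KO_PBS samples. On the log2 scale it was lower by a fold change of -0.53 (SE 0.15), with an edgeR adjusted p of 0.0683 and an exact permutation p of 0.0286. It passed the threshold in 7 of 23 alternatives, among them DESeq2 (0.0278) and limma-voom (0.0279), and its adjusted p was at most 0.195.

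Itgb1 was at 275, 258, 259.8 and 284 CPM in KO_ASO, and only KO_PBS replicate 3 fell among these samples. Its log2 fold change was -0.28 (SE 0.089, edgeR adjusted p = 0.0969; exact permutation p = 0.0571). DESeq2 called it (0.0327), and it passed in 3 of 23 alternatives, with an adjusted p of up to 0.272. The KO_ASO samples were all above the highest WT_PBS sample, by a log2 fold change of 0.25 (SE 0.089, edgeR adjusted p = 0.491; exact permutation p = 0.0286).

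Itga5 was at 21.9, 18.5, 18.5 and 30.1 CPM in KO_ASO. Replicates 1 to 3 were below every KO_PBS sample, and replicate 4 was not. In the fit its log2 fold change was -0.54 (SE 0.18, edgeR adjusted p = 0.106; exact permutation p = 0.0857); without KO_ASO replicate 4 it was -0.72 with an adjusted p of 0.0221. It passed in 3 of 23 alternatives, with an adjusted p of up to 0.299.

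Itga9 was at 6.03, 5.56, 5.40 and 10.3 CPM in KO_ASO. The same replicate 4 stood apart, within the KO_PBS range, while the other 3 lay below it. In the fit the log2 fold change was -0.52 (SE 0.21, edgeR adjusted p = 0.206; exact permutation p = 0.0857), and without KO_ASO replicate 4 it was -0.78 (adjusted p = 0.0263). It passed in 2 of 23 alternatives, with an adjusted p of up to 0.496. Replicate 4 was the highest KO_ASO sample for 7 of the 10 genes and the lowest for Itga3, Itga6 and Itgb5. Its macrophage, fibroblast, endothelial and Schwann cell sums were the highest of the group, at 73.6, 1910, 552 and 73.3 CPM. Its satellite cell sum was the lowest, at 47.0 CPM, and its muscle fibre, mural cell and tendon sums were neither. Replicate 3 had the next highest fibroblast sum, 1730 CPM, and the lowest Itga5 and Itga9 levels of the group. The part of these cell types was not tested.

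Itga1, the collagen receptor chain, lay the other way: its KO_ASO samples, at 33.8, 33.4, 34.6 and 43.2 CPM, were all above the KO_PBS samples, at 31.7, 26.1, 32.9 and 25.4 CPM. The 2 groups were separated by a small gap, and the log2 fold change was 0.32 (SE 0.14, edgeR adjusted p = 0.243; exact permutation p = 0.0286). With Itga7 and Itgav, 3 of the 10 genes had groups that did not overlap, beside 10.4% of all genes tested (4.04% higher and 6.34% lower). Itga3, Itga6, Itga8 and Itgb5 gave log2 fold changes of 0.03, 0.21, 0.04 and 0.17, all with an edgeR adjusted p of at least 0.612. The median over the 10 genes was -0.12, beside 0.01 over all genes.

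Markers of other cells moved in this comparison as well. The summed macrophage markers were at 48.0 to 73.6 CPM in KO_ASO, below every KO_PBS sample, with 6 of 8 genes called lower. Fibroblast markers were at 591 to 1910 CPM in KO_ASO, with 1 of 8 called lower, and their range overlapped that of KO_PBS. The satellite cell sum was at 47.0 to 58.3 CPM, above every KO_PBS sample, with 0 of 6 genes called. The muscle fibre sum was at 129711 to 150420 CPM, likewise above every KO_PBS sample, with 0 of 8 genes called. Of 5 tendon markers 1 was called lower, and edgeR called none of the muscle fibre, endothelial, mural or Schwann cell markers. Their part in the difference of Itga7 was not tested.

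**Figure D3:**
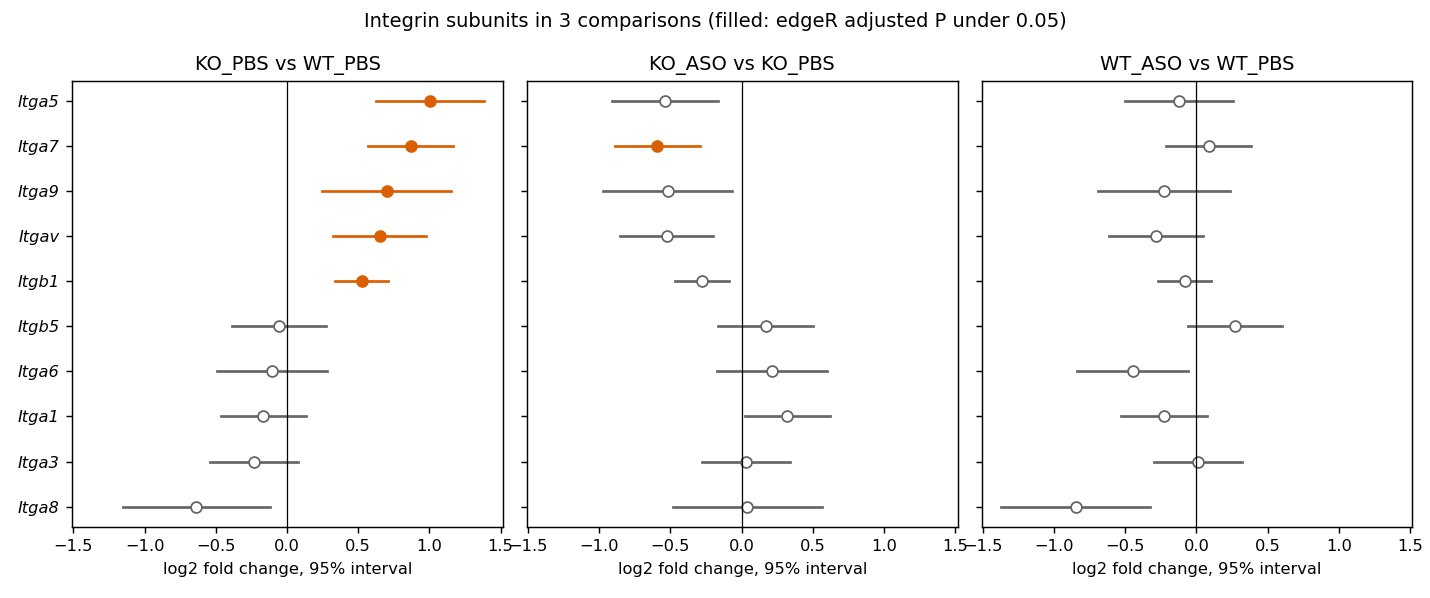
Log2 fold change (horizontal axes) with its 95% interval for each subunit (vertical axis) in KO_PBS against WT_PBS, KO_ASO against KO_PBS and WT_ASO against WT_PBS; filled points passed an edgeR adjusted p of 0.05. Filled points are seen for 5 genes in the first panel, for Itga7 alone in the second and for none in the third.

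In wild-type mice the oligonucleotide changed 0 of the 10 subunits by edgeR's adjusted p, beside 0.00668% of all genes, and DESeq2 and limma-voom likewise called 0. At an unadjusted p under 0.05 there were 2, Itga6 and Itga8, beside 6.45% of all genes. Itga8 was at 1.67, 1.48, 0.88 and 1.92 CPM in WT_ASO, all below the WT_PBS samples, with a log2 fold change of -0.85 (SE 0.25, edgeR adjusted p = 0.643; exact permutation p = 0.0286). It was the 1 gene of the 10 without overlap, beside 3.22% of all genes. Itga6 was at 35.7, 25.9, 22.5 and 39.8 CPM in WT_ASO against 53.3, 36.5, 37.7 and 41.4 CPM in WT_PBS, with a log2 fold change of -0.45 (SE 0.18, edgeR adjusted p = 0.744). For Itga7 the value was 0.09 (95% interval -0.21 to 0.38), and for Itgb1 it was -0.08 (-0.27 to 0.11). The mural cell sum was 703 to 903 CPM in WT_ASO, below every WT_PBS sample, and the endothelial sum was 315 to 520 CPM against 408 to 575 CPM, with 0 of 8 genes called in each list. Their part in the values of Itga6 and Itga8 was not tested.

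Whether the oligonucleotide acted differently in the 2 genotypes was tested as an interaction. It was called for 0 of the 10 genes by edgeR, beside 0.575% of all genes, and for 0 by DESeq2 and by limma-voom. At an unadjusted p under 0.05 there were 4 (Itga1, Itga6, Itga7 and Itga8), beside 12.7% of all genes. Itga7 had the smallest adjusted p, with an interaction of -0.68 on the log2 scale (SE 0.20, edgeR adjusted p = 0.146), so that its lower value after the oligonucleotide is not shown to be particular to the knockout.

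KO_ASO was also compared with both wild-type groups. Against WT_PBS, 0 of the 10 genes passed (0.0401% of all genes did), and 3 had an unadjusted p under 0.05 (8.22% of all genes): Itga5 with a log2 fold change of 0.46, Itga8 with -0.60 and Itgb1 with 0.25. Without KO_ASO replicate 4 the value of Itga5 was 0.28 (edgeR adjusted p = 0.731). Of the 3 genes only Itgb1 had no overlap of samples, beside 5.39% of all genes. Against WT_ASO, 0 passed by edgeR (0.0735% of all genes did) and 5 had an unadjusted p under 0.05 (15.1% of all genes): Itga1, Itga5, Itga6, Itgav and Itgb1, all higher in KO_ASO. Itga1, Itga6 and Itgb1 had no overlap there, 3 of the 10 beside 6.97% of all genes, and Itgb1 had the smallest adjusted p, at a log2 fold change of 0.33 (SE 0.089, edgeR adjusted p = 0.126). DESeq2 called this difference of Itgb1 (adjusted p = 0.0159), limma-voom called 0 of the 10 in either comparison, and DESeq2 called 0 of the 10 against WT_PBS. The mural cell sum, at 904 to 953 CPM in KO_ASO, was above every WT_ASO sample, and the muscle fibre sum was below every WT_ASO sample, at 153385 to 216382 CPM there. The endothelial sum was 513 to 552 CPM in KO_ASO and 315 to 520 CPM in WT_ASO, with overlap. Against WT_PBS the mural cell sum was below every sample by a narrow margin (954 to 1043 CPM there), and the sums of the other lists overlapped. The part of these cell types was not tested.

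The makeup of the alpha chains was described by the share of each gene in the summed level per kb of exon of the 8 alpha subunits, a measure that does not depend on library scaling. Itga7 took 47.8, 54.4, 50.6 and 46.8% in WT_PBS and 61.9, 56.9, 54.6 and 59.7% in KO_PBS. The groups were apart by a thin margin, and the difference of 8.38 percentage points had an exact permutation p of 0.0286, or 0.0714 after Benjamini-Hochberg adjustment over 5 comparisons. In KO_ASO the share was 53.6, 49.3, 53.3 and 51.3%, a difference of -6.39 points from KO_PBS (exact permutation p = 0.0286, adjusted p = 0.0714). In WT_ASO it was 54.8, 53.1, 61.6 and 53.8%, which overlapped every other group (5.93 points above WT_PBS, exact permutation p = 0.0857, adjusted p = 0.143). None of the 5 differences of the share passed after adjustment. An exact permutation p of 0.0286 is the smallest that 4 samples against 4 allow. KO_PBS against WT_PBS and KO_ASO against KO_PBS both had this smallest p. As no other comparison reached it, their adjusted p could not be below 0.0714, whatever the size of the difference. For them the adjusted p therefore cannot decide whether the share differed.

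The shares of the other alpha chains are given as a description. Itga6 took 15.7 ± 3.34% (SD, n = 4) in WT_PBS and 9.55 ± 2.42% in KO_PBS, Itga5 took 10.9 ± 1.51% and 14.1 ± 1.06%, and Itga1 took 5.87 ± 0.748% and 3.42 ± 0.680%. These shares are per kb of exon. Per kb of coding sequence Itga6 took 16.9 ± 3.42% in WT_PBS and 10.7 ± 2.59% in KO_PBS, Itga5 took 6.67 ± 0.953% and 8.97 ± 0.750%, and Itga1 took 12.03 ± 1.41% and 7.30 ± 1.37%. On that scale the mean share of Itga5 was below that of Itga6 in both groups and below that of Itga1 in WT_PBS, so that the order of these shares depended on the length. Itgav took 6.46 to 9.86% in WT_PBS and 7.13 to 9.31% in KO_PBS per kb of exon, and 8.56 to 13.04% and 10.02 to 12.9% per kb of coding sequence. The sum over the 8 alpha chains was 28.8 to 30.8 CPM per kb of exon in WT_PBS, 24.1 to 32.3 in WT_ASO, 40.4 to 58.0 in KO_PBS and 32.5 to 38.5 in KO_ASO, and the Itgb1 level per length was above the alpha sum in each of the 16 samples, also per kb of coding sequence.

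The other genes of the pathway were taken from lists of integrin subunits, ligands, cytoplasmic adaptors and trafficking proteins. Of 16 other integrin subunits 15 were tested, and edgeR called 4 higher and 0 lower in KO_PBS against WT_PBS. These were Itgam, the alpha M chain of macrophages and neutrophils (log2 fold change 1.68, SE 0.44, adjusted p = 0.0210), its partner Itgb2, the beta chain of leukocytes (1.46, SE 0.43, adjusted p = 0.0374), and the pair of the platelet receptor, Itga2b (0.68, SE 0.18, adjusted p = 0.0219) and Itgb3 (0.76, SE 0.24, adjusted p = 0.0440), of which Itgb3 also pairs with Itgav. They were low, with Itgb2 at 1.66 ± 0.419 CPM (SD, n = 4) in WT_PBS and 4.57 ± 3.36 CPM in KO_PBS. The macrophage marker sums above moved with these groups, and their part was not tested. In KO_ASO against KO_PBS, 3 of the 15 were lower and 0 higher: Itga2b (-0.84, adjusted p = 0.0192), Itgb3 (-0.98, adjusted p = 0.0348) and Itgb2 (-1.80, adjusted p = 0.0379).

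Of 22 ligand genes 21 were tested, and 3 were higher and 1 lower in KO_PBS than in WT_PBS. Npnt, which encodes nephronectin, the ligand of the Itga8 chain, was at 7.96 ± 1.55 CPM (SD, n = 4) in WT_PBS and 17.2 ± 6.46 CPM in KO_PBS (log2 fold change 1.11, SE 0.22, edgeR adjusted p = 0.00427), the direction opposite to that of the Itga8 values. Thbs1 (thrombospondin 1) gave 1.54 (adjusted p = 0.00577) and Fbn1 (fibrillin 1) 1.29 (adjusted p = 0.0128), and both encode matrix proteins with RGD sites. Vcam1, a cell-surface ligand of the Itga9 chain, was the 1 gene lower (-0.59, adjusted p = 0.0258). Fn1, which encodes the fibronectin bound by Itga5, had a log2 fold change of 0.72 that did not pass (SE 0.37, edgeR adjusted p = 0.236), and Lama2, the laminin alpha 2 chain of the fibre's basal lamina, had 0.24 (SE 0.13, adjusted p = 0.268). In KO_ASO against KO_PBS Npnt was the 1 ligand gene called, as lower (-1.05, SE 0.22, edgeR adjusted p = 0.0166).

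Of 25 genes for adaptors and kinases at the cytoplasmic tail, 2 were higher and 1 lower in KO_PBS than in WT_PBS by edgeR. Lims1, which encodes PINCH1, a partner of integrin-linked kinase, gave 0.50 (SE 0.11, adjusted p = 0.00939), and the kinase gene Src 0.67 (adjusted p = 0.0442). The focal adhesion kinase gene Ptk2 was lower (-0.29, adjusted p = 0.0408). After the oligonucleotide in the knockout the related kinase gene Ptk2b was the 1 gene called, as lower (-1.01, adjusted p = 0.0458).

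Of 21 genes for integrin trafficking, 2 were called higher and 0 lower in KO_PBS against WT_PBS. Arf6, a small GTPase of integrin recycling, was at 6.95 ± 0.598 CPM (SD, n = 4) in WT_PBS, 11.2 ± 0.895 in KO_PBS and 7.86 ± 1.14 in KO_ASO. Its log2 fold change was 0.68 with the knockout (SE 0.12, edgeR adjusted p = 0.00181) and -0.51 with the oligonucleotide in the knockout (SE 0.12, adjusted p = 0.0315). Dab2, an endocytic adaptor that binds beta chains, gave 0.67 with the knockout (adjusted p = 0.0429). The called genes of the 4 lists stand beside a background of 12.6% and 3.64% of all genes for the 2 comparisons. In KO_PBS against WT_PBS the adaptor list (2 higher and 1 lower of 25) and the trafficking list (2 of 21) were not above it. The ligand list (3 higher and 1 lower of 21) and the other subunits (4 of 15) were. In KO_ASO against KO_PBS the ligand, adaptor and trafficking lists had 1 gene each, close to the background, and the other subunits 3 of 15. The lists were chosen with earlier results of these data known.

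The genes most like each called subunit were found by the root mean square difference of their centred log2 CPM over the 16 samples. For Itgb1 the closest was Mgat2 at 0.0911, followed by Gna13 at 0.108 and Frmd6 at 0.111, where the SD of Itgb1 itself was 0.25. For Itga7 (SD 0.38) they were Arl6ip5 at 0.122, Acot9 at 0.133 and Micall1 at 0.139, and for Itgav (SD 0.40) Mtpn at 0.114, Prkaa1 at 0.152 and Fndc3b at 0.155. For Itga5 (SD 0.50) they were Mcm6 at 0.158, Stom at 0.172 and Lgmn at 0.192, and for Itga9 (SD 0.44) Mcm6 at 0.176, Abca9 at 0.180 and Igfbp4 at 0.182. No subunit was among the closest genes of another, and Mcm6 was shared by Itga5 and Itga9. These differences are a description over samples that share their groups.

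**Figure D4:**
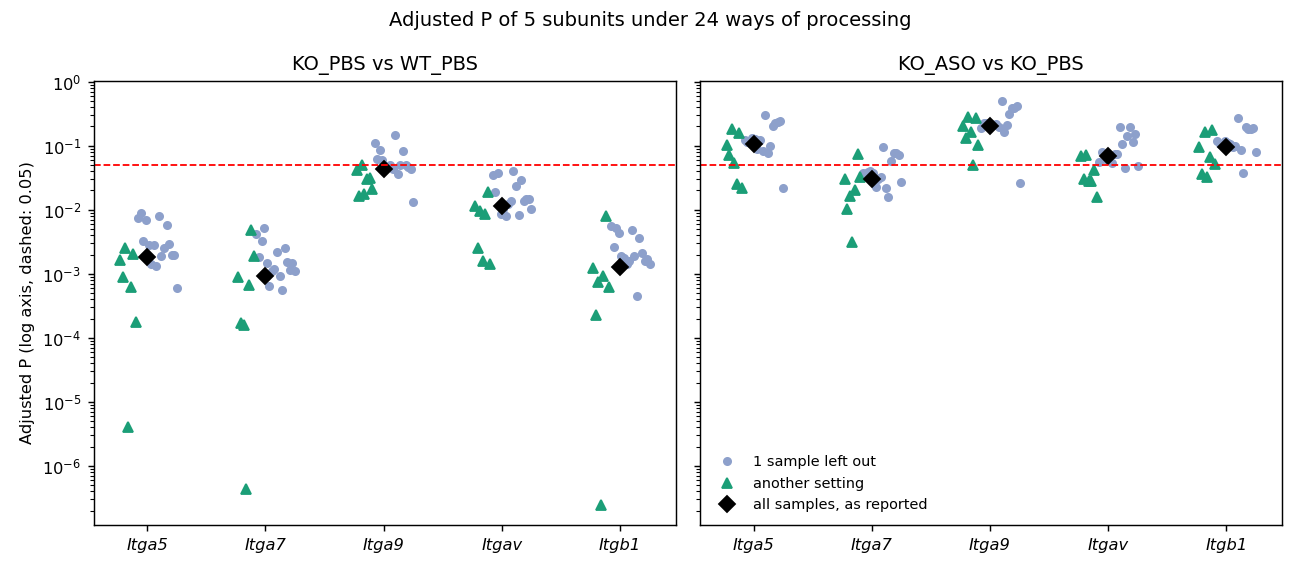
Adjusted p (vertical log axis, dashed line at 0.05) of the 5 subunits higher in KO_PBS, in 24 ways of processing: as reported (diamonds), 7 other settings (triangles) and 16 fits that each leave out 1 sample (circles). In KO_PBS against WT_PBS all points of Itga5, Itga7, Itgav and Itgb1 lie under the line; in KO_ASO against KO_PBS the points of all 5 genes lie on both sides of it.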

How the data were processed

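The table that the authors deposited holds raw counts for each Ensembl gene and sample, without normalization. HTSeq 0.6.1p1, STAR 2.5.3a, Bowtie2 2.2.8 and cutadapt 1.10 and the build GRCm38 are listed by the submitters' processing notes, without their roles; the Ensembl release is not given in the sources used here. Symbols, coordinates and exon and coding lengths were taken from GENCODE, and promoters from RefSeq. Groups were taken from the labels. Of 29730 genes, 14770 were left out by the filter on low counts. Counts of all 16 samples were fitted with edgeR 4.0.16 (R 4.3.3; TMM scaling, robust quasi-likelihood, 1 mean per group), with Benjamini-Hochberg adjustment over the genes tested. CPM used TMM-scaled library sizes. Permutation tests were exact and two-sided. Levels per kb of coding sequence were added after seeing the data. The code was tested on simulated data. Alternatives were DESeq2 1.42.0, limma 3.58.1 (voom with sample quality weights), other scalings, no filter, only the groups compared, a replicate block and leaving out each sample. The subunits and lists were chosen with earlier results of these data known. All 10 subunits are named; of each other list, the called genes with the smallest p, at most 6 per comparison; and the 3 genes most like each called subunit. Fn1 and Lama2, ligands of Itga5 and Itga7, were added after their values were seen.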

Additional observations from a re-analysis of the deposited data

Results flagged for a closer look

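In the 40 groups of 4 samples (10 genes in 4 groups), 3 values, in 2 samples, stood apart from the other 3 of their group by more than Dixon's 95% critical value for the gap over the range; chance gives about 1 in 20. Itga1 was at 43.2 CPM in KO_ASO replicate 4, against 33.4 to 34.6 CPM in the others. Itga9 was at 10.3 CPM in the same sample, against 5.40 to 6.03 CPM. Itga8 was at 3.66 CPM in WT_PBS replicate 4, against 2.27 to 2.44 CPM.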

How the results depend on the processing

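For KO_ASO against KO_PBS the number of subunits called moved from 1 to 3 with library totals only or with DESeq2 and to 4 with limma-voom; with DESeq2 KO_ASO against WT_ASO gave 1 in place of 0. Leaving out 1 sample gave 0 to 4 in KO_ASO against KO_PBS and 4 to 5 in KO_PBS against WT_PBS. The difference in Itga7 share ran from 7.18 to 9.88 points for KO_PBS against WT_PBS, -7.61 to -5.19 for KO_ASO against KO_PBS, 3.995 to 7.43 for WT_ASO against WT_PBS, 0.962 to 3.49 for KO_ASO against WT_PBS (1.99 with all samples; lowest without WT_PBS replicate 4, highest without WT_PBS replicate 2) and -4.86 to -2.005 for KO_ASO against WT_ASO, with an adjusted exact permutation p of 0.0476 for some without WT_PBS replicate 2 or WT_ASO replicate 2. No called value changed sign. Scaling by library totals moved the median log2 fold change of all genes by 0.15 in KO_PBS against WT_PBS, 0.10 in KO_ASO against WT_ASO and -0.09 in KO_ASO against KO_PBS. The cause of these moves was not tested.

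Replicate numbers pair no samples by the labels, and 11 of 24 pairs with the same number had deviations correlated above 0.1, although 14 of 16 samples correlated best with their own number. With the replicate number as a block, 3 subunits were called in KO_ASO against KO_PBS (Itga5, Itga7 and Itgav) and 6 in KO_PBS against WT_PBS, where Itga8 was added (adjusted p = 0.0487; limma-voom 0.0186).

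Over all genes, calls in KO_ASO against KO_PBS were 544 by edgeR, 1023 by DESeq2, 1190 by limma-voom, 300 with only the groups compared and 208 to 831 without 1 sample. In KO_PBS against WT_PBS they were 1878, and 997 to 2137 without 1 sample. WT_ASO against WT_PBS gave 1, 35 with DESeq2, 3 without the filter, 2 with the block and 1 to 4 without 1 sample; KO_ASO against WT_PBS gave 6, 86 with DESeq2 and 4 to 11 without 1 sample; KO_ASO against WT_ASO gave 11, 412 with DESeq2, 6 with RLE scaling, 2 with limma-voom or only the groups compared, 44 with the block and 2 to 19 without 1 sample; the interaction gave 86, 362 with DESeq2 and 23 to 102 without 1 sample. Among the 10 subunits Itga8 had the lowest counts, 29 to 146 per sample, and the largest standard errors.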
